A study of Mus musculus with 36 samples.

Results

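Voltage-gated calcium channels of the heart were followed at the level of their mRNA through mouse development and into old age. The set consisted of 7 genes: the T-type pore genes *Cacna1h* and *Cacna1g*, the L-type pore genes *Cacna1c* and *Cacna1d*, and the auxiliary subunit genes *Cacna2d1*, *Cacna2d2* and *Cacnb2*. They were matched by symbol and Entrez gene ID, and they are 7 of the 20701 genes with a gene ID on the array. The list was chosen with earlier results of these data known, and the published paper had already described changes of *Cacna1h*, *Cacna1g* and *Cacna2d2*. Shares of all genes given beside counts of members are therefore a description and not a test. All probe sets of these genes were kept, which gave 16 of the 45101 probe sets. A probe set is a group of short array features designed against 1 transcript region. *Cacna1g* and *Cacna1c* have 1 probe set each, *Cacna1h*, *Cacna1d* and *Cacnb2* have 2, *Cacna2d2* has 3 and *Cacna2d1* has 5.

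Hearts came from OF1 (Oncins France 1) mice that carried no label of a transgene or a treatment. Embryonic hearts represent 10 successive days, E10.5 being the first and E19.5 the last, and young adult hearts were taken at 10 weeks. Old adult hearts were taken at 14 months according to the series text and at 10 months according to the published methods, and no calculation uses this age. Every stage (12) is represented by 3 arrays, which makes 36. Arrays of E10.5 and E11.5 hold pooled males and females, whereas each later stage has 1 female, 1 male and 1 mixed array. The methods describe the triplicates as biological samples.

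The pore-forming α1 subunit of such a channel opens on depolarization and lets calcium into the cell. L-type channels (CaV1.2 from *Cacna1c*, CaV1.3 from *Cacna1d*) carry the calcium current that triggers contraction of heart muscle cells, and CaV1.3 also takes part in pacemaking in the sinoatrial node. T-type channels (CaV3.2 from *Cacna1h*, CaV3.1 from *Cacna1g*) open at more negative voltages, are known from embryonic heart muscle, and in the adult are found mainly in pacemaker and conduction tissue. The extracellular α2δ subunits and the cytoplasmic β subunits bind L-type α1 subunits and raise their number and activity at the cell surface.

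All values are log2 array intensities, in which a difference of 1 is a 2-fold change. Intensities of different probe sets are not comparable as amounts of RNA, so levels were compared only between stages within a probe set. Each gene was read from its probe set with the highest mean over the 36 arrays. A gene was called at the study's limits when a probe set had an adjusted p under 1e-05, a log2 difference beyond 2 in either direction (4-fold), and some stage mean exceeded 5. All comparisons with young adult share the same 3 young adult arrays, and all comparisons with E19.5 share the same 3 E19.5 arrays. In whole hearts, fewer cells of a type and less RNA per cell cannot be told apart.

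Arrays of 1 stage correlated at 0.969 or higher over all probe sets. All 5 cardiomyocyte markers found (*Tnnt2*, *Actn2*, *Ttn*, *Ryr2* and *Tnnc1*) were above 5, and none of the 4 liver markers found was, although the extraction protocol in the labels names liver. Spiked-in hybridization controls, which carry no mouse RNA, moved with stage: their mean was 9.65 on the first day and 10.9 on the last, 12.0 in young adults and 11.2 in old ones. Sample titles also change their form partway through E16.5, and 16 of the 36 arrays (10 embryonic, 6 adult) carry the later form. Title form therefore runs with stage, so a change of slope between forms and a change with time cannot be told apart. Where a call or the sign of a difference changed with the hybridization controls as a covariate, or a slope changed between title forms, the values are given beside the result, and the part of either in the results was not tested further.

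Across the heart's development, 4 of the 7 genes were called at the study's limits against young adult in at least 1 stage (*Cacna1h*, *Cacna1g*, *Cacna1d* and *Cacna2d2*), beside 12.7% of all genes. Against E19.5, 3 were called (*Cacna1h*, *Cacna1g* and *Cacna2d2*), beside 6.88% of all genes. The calls differed in timing: *Cacna1h* was called at every embryonic day, *Cacna2d2* at the 2 earliest, *Cacna1d* at E13.5 and E14.5, and *Cacna1g* at E17.5. Every one of these calls was a higher level in the embryo than in the young adult. At single stages the share of all genes called against young adult ran from 9.9% (E10.5) down to 2.31% (E19.5).

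**Figure D1:**
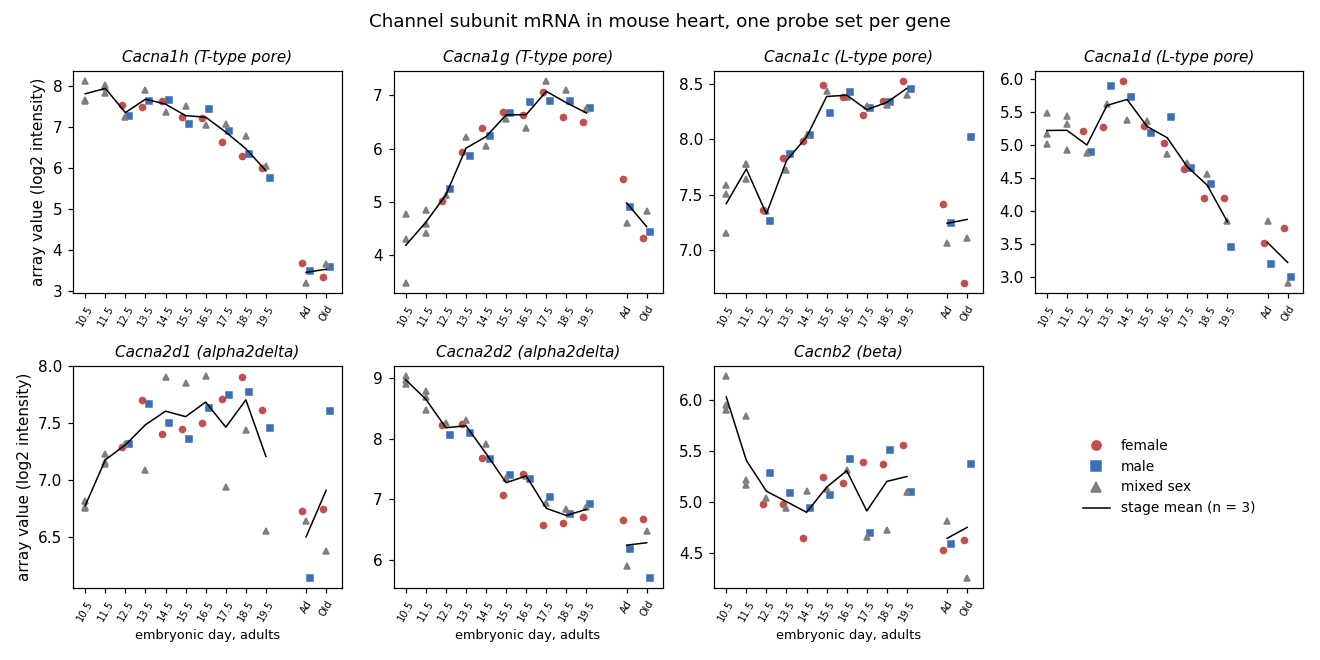
Log2 intensity on each of the 36 arrays (vertical axes, scaled separately per panel) against stage (horizontal axes, embryonic day, then young adult "Ad" and old adult), for the read probe set of each gene. Points are arrays, by sex label, and lines join stage means of 3 arrays. *Cacna1h* and *Cacna2d2* lie highest at the earliest days, and *Cacna1g* climbs to E17.5 and *Cacna1c* to E15.5. The highest mean of *Cacna1d* is 5.68, at E14.5.

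*Cacna1h*, which encodes the T-type pore CaV3.2, had the widest range of the set. At E10.5 its 3 arrays read 7.63, 7.67 and 8.12. At E19.5 they read 5.99 (female), 5.76 (male) and 6.03 (mixed), and in young adult 3.69 (female), 3.48 (male) and 3.19 (mixed). All embryonic arrays lay above all adult arrays, and the old adult arrays (3.35, 3.59 and 3.65) overlapped the young adult ones. The mean was 4.36 ± 0.17 (SE, n = 3 arrays per stage) log2 units above young adult at E10.5, or 20.5-fold (limma, adjusted p = 1.3e-19). The largest difference stood at E11.5 with 4.49 ± 0.17, and at E19.5 it was still 2.48 ± 0.17, or 5.58-fold (limma, adjusted p = 6.2e-13).

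Against E19.5, *Cacna1h* was past the limits at E11.5 (2.01 ± 0.17 higher, limma, adjusted p = 1.1e-10) and in both adult stages (young adult -2.48, old adult -2.40). At E10.5 the difference was 1.88 ± 0.17, short of 4-fold. With the hybridization controls as a covariate it was 2.40 ± 0.18 (limma, adjusted p = 1.3e-11), past both limits. Within the embryonic period *Cacna1h* fell by 0.19 ± 0.02 (SE, 30 arrays) log2 units per day (limma, adjusted p = 4.5e-10). The decline was steeper late: the last 4 stage means were 7.24, 6.87, 6.47 and 5.93. In the order of stage means, 9 of the 11 neighboring pairs of stages overlapped in their arrays. The exceptions were E18.5 over E19.5 and E19.5 over old adult. Among the 20 embryonic arrays before the change of title form the slope was -0.10 ± 0.03 (limma, adjusted p = 0.0029), and among the 10 after it -0.44 ± 0.07 (adjusted p = 0.019), both short of the limit of 1e-05.

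The second *Cacna1h* probe set (1427607_at) stayed between 2.46 and 3.15 on all arrays, below the limit of 5, and differed from young adult in no stage at an adjusted p under 0.05. Averaged over both probe sets, *Cacna1h* was 2.20 log2 units above young adult at E10.5 and 1.33 at E19.5, the latter no longer past the 4-fold limit.

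*Cacna1g*, which encodes the other T-type pore, CaV3.1, started low and rose. Its arrays read 3.47, 4.30 and 4.77 at E10.5, and 7.06 (female), 6.89 (male) and 7.27 (mixed) at E17.5. In young adult they read 5.43 (female), 4.90 (male) and 4.60 (mixed). The E17.5 arrays lay above all 6 adult arrays, whereas the E10.5 arrays overlapped both adult groups. The mean was 0.80 ± 0.22 (SE) log2 units below young adult at E10.5 (limma, difference -0.80, adjusted p = 0.0029) and 2.10 ± 0.22 above it at E17.5, or 4.28-fold (adjusted p = 4.3e-09). With the hybridization controls as a covariate, the E10.5 difference turned to 0.15 ± 0.39 (adjusted p = 0.85), so the lower level at E10.5 than in young adult was no longer found. At E19.5 the excess over young adult was 1.69 ± 0.22 (adjusted p = 4.4e-07), past the p limit but short of 4-fold, and 2.12 ± 0.25 with the covariate (adjusted p = 6.4e-08), past both.

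Against E19.5, *Cacna1g* was lower by 2.49 ± 0.22 at E10.5 (log2 difference -2.49, limma, adjusted p = 2.3e-10) and by 2.06 ± 0.22 at E11.5 (-2.06, adjusted p = 2e-08). With the hybridization controls as a covariate the E10.5 difference was -1.98 ± 0.27 (limma, adjusted p = 1.7e-06), short of 4-fold. Over the embryonic days *Cacna1g* rose by 0.30 ± 0.03 log2 units per day (limma, adjusted p = 8.8e-11). Stage means were 4.18 at E10.5, 6.63 at E15.5, 7.08 at E17.5 and 6.67 at E19.5. The slope was 0.46 ± 0.04 among the 20 arrays before the change of title form (adjusted p = 1.6e-09) and -0.08 ± 0.08 among the 10 after it (adjusted p = 0.79). With the hybridization controls as a covariate the slope was 0.19 ± 0.03 (adjusted p = 2.7e-05), short of the limit.

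Between successive days, 1 of the 7 genes passed an adjusted p of 0.05, beside 8.26% of all genes with such a step. This was the step of *Cacna1g* from E12.5 (5.01, 5.24 and 5.13) to E13.5 (5.94, 5.86 and 6.22), a rise of 0.88 ± 0.22 log2 units (limma, adjusted p = 0.043), which 0.836% of all genes also made upward. The 2 groups of arrays did not overlap, but the call was lost after quantile normalization and when any 1 of 9 arrays was left out (all 6 of E12.5 and E13.5, and 1 each of E15.5, E16.5 and E18.5).

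**Figure D2:**
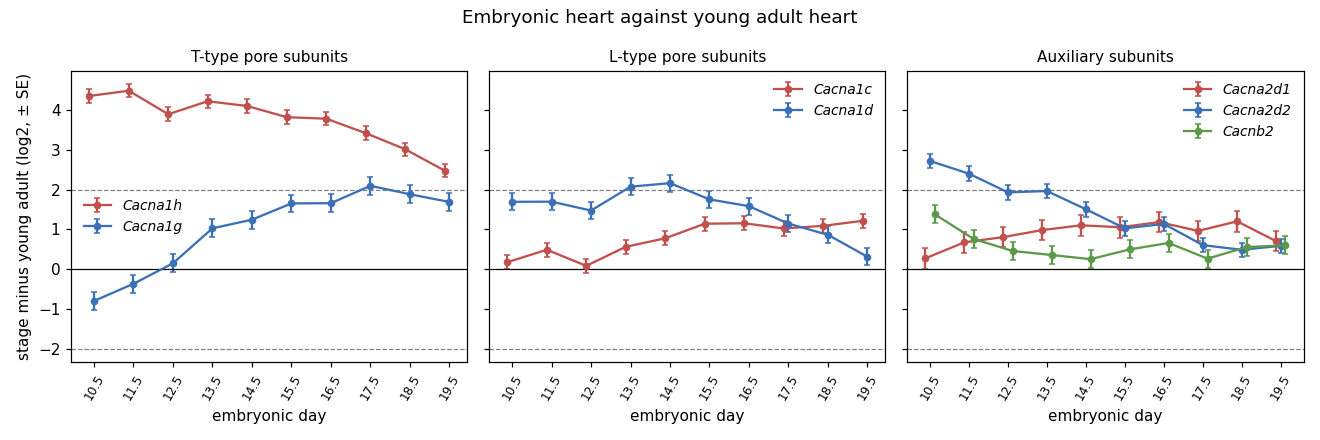
Log2 difference between each embryonic stage and young adult (vertical axis, ± SE from the fit, n = 3 arrays per stage) against embryonic day, read probe sets only. Dashed lines mark the 4-fold limit; *Cacna1h* is beyond it on every day, with 4.36 on the first and 2.48 on the last, while *Cacna1g* moves from -0.80 to 2.10 at E17.5.

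Whether both T-type genes changed in step was asked from the difference *Cacna1g* minus *Cacna1h* of the log2 values on the same array. The sign of this difference says nothing about which mRNA is more abundant, since it compares different probe sets, but its change with stage does not depend on that. The difference averaged -3.63 ± 0.47 (SD, n = 3) on the first day sampled, -1.33 ± 0.09 on E14.5, -0.60 ± 0.05 on E16.5, and reached 0.74 ± 0.25 on the last day. Young adults had 1.53 ± 0.19 and old adults 1.01 ± 0.17. The arrays of E10.5 (-4.16 to -3.35) and of E19.5 (0.51 to 1.01) were far apart, and the mean climbed at each of the daily steps.

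Over the 30 embryonic arrays the difference followed embryonic day with Pearson's r = 0.977 and Spearman's rho = 0.982 (two-sided permutation test, 100000 resamples, p = 1e-05 for each, the smallest they can give). This was the sole relation tested in this way. Without the 2 arrays farthest from the median day, r was 0.976. Within the 20 arrays before the change of title form r was 0.962 (permutation p = 1e-05), and within the 10 after it 0.865 (permutation p = 0.00069). Leaving out each stage in turn kept r between 0.973 and 0.980. With the second *Cacna1h* probe set, which stayed below 5, r was 0.8585 (permutation p = 1e-05), so the test can pass through *Cacna1g* alone. Both genes also had opposite slopes on these same arrays, so the relation is not separate support for those slopes.

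**Figure D3:**
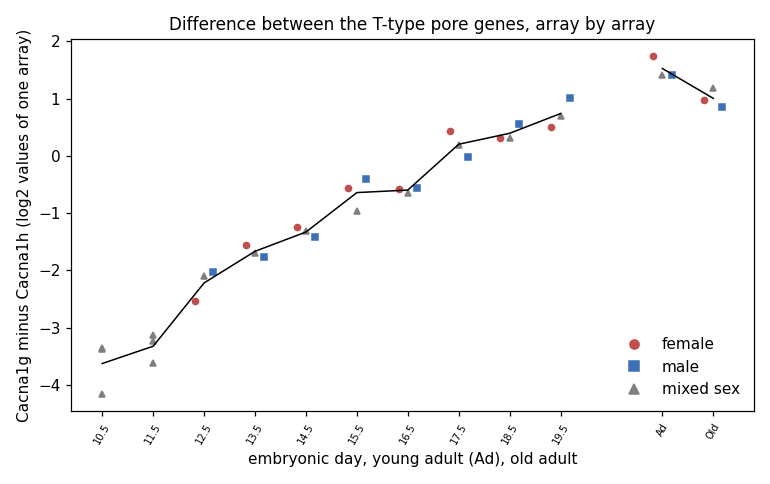
Log2 value of *Cacna1g* minus that of *Cacna1h* on each array (vertical axis) against stage (horizontal axis), with points by sex label and a line through stage means of 3 arrays. The difference climbs from -3.63 (E10.5) to 0.74 (E19.5), and stands higher in young adult (1.53) than in old adult (1.01).

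*Cacna1c* encodes CaV1.2, the main L-type pore of working heart muscle. Its arrays read 7.16, 7.51 and 7.59 at E10.5, and 8.53 (female), 8.45 (male) and 8.40 (mixed) at E19.5. In young adult they read 7.42 (female), 7.24 (male) and 7.07 (mixed). The E19.5 arrays lay above all E10.5 and all adult arrays, while E10.5 and young adult overlapped. Relative to young adult the mean was 0.18 ± 0.18 (SE) higher at E10.5 (limma, adjusted p = 0.38, 95% interval -0.19 to 0.54, a difference that turned to -0.32 after quantile normalization and -0.35 after median centring) and 1.22 ± 0.18 higher at E19.5, or 2.33-fold (adjusted p = 2.7e-06). No stage went past 4-fold against either reference.

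Over the embryonic days *Cacna1c* rose by 0.12 ± 0.01 log2 units per day (limma, adjusted p = 1.9e-09). Stage means were 7.33 (E12.5), 8.02 (E14.5) and 8.39 (E15.5), and thereafter they kept between 8.27 and 8.46. The slope was 0.18 ± 0.02 before the change of title form (adjusted p = 2.8e-06) and 0.05 ± 0.05 after it (adjusted p = 0.82). With the hybridization controls as a covariate it was 0.10 ± 0.02 (adjusted p = 0.00011).

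*Cacna1d*, the gene of the pacemaker L-type pore CaV1.3, had its highest mean at E14.5. At E14.5 its arrays read 5.96 (female), 5.72 (male) and 5.37 (mixed). At E19.5 they read 4.20 (female), 3.45 (male) and 3.84 (mixed), and in young adult 3.51 (female), 3.20 (male) and 3.85 (mixed). The E14.5 arrays lay above all of these, whereas E19.5 and young adult overlapped. The E14.5 arrays also overlapped those of E10.5 (5.01 to 5.47), E11.5, E13.5 and E16.5. No daily step of *Cacna1d* passed an adjusted p of 0.05, so a rise to E14.5 from the earliest days was not established. The mean was above young adult by 2.08 ± 0.22 (SE) log2 units at E13.5 and by 2.17 ± 0.22 at E14.5, or 4.48-fold (limma, adjusted p = 1.9e-09 and 8.5e-10). At E19.5 the difference was 0.31 ± 0.22 (adjusted p = 0.30, 95% interval -0.13 to 0.76).

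The embryonic means of *Cacna1d* rose in 3 daily steps and fell in 6. Its slope over the embryonic days was -0.13 ± 0.03 per day (limma, adjusted p = 8.1e-05), short of the limit of 1e-05, and -0.23 ± 0.03 with the hybridization controls as a covariate (adjusted p = 1.8e-06), past it. The moderated F test over the 10 embryonic means gave an adjusted p of 1.7e-07, a level below 1e-05 that 16.5% of all genes reached. This test asks whether the means are equal, and a straight slope can pass it too. Departure from a straight line was not tested. Before the change of title form the slope was 0.03 ± 0.03 (adjusted p = 0.45) and after it -0.40 ± 0.07 (adjusted p = 0.035). A second probe set (1428051_a_at) stayed between 2.69 and 3.74 and differed from young adult in no stage at an adjusted p under 0.05.

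*Cacna2d2*, an α2δ gene, declined through the embryonic days, with a stage mean that fell in 6 daily steps and rose in 3. Its arrays read 8.90, 8.97 and 9.03 at E10.5, and 6.70 (female), 6.93 (male) and 6.87 (mixed) at E19.5. In young adult they read 6.66 (female), 6.18 (male) and 5.89 (mixed). These 3 groups did not overlap, and the E10.5 arrays lay close together. The mean exceeded young adult by 2.72 ± 0.18 (SE) log2 units at E10.5, or 6.6-fold (limma, adjusted p = 6.6e-14), and by 2.40 ± 0.18 at E11.5 (adjusted p = 1.4e-12). At E19.5 the excess was 0.59 ± 0.18 (adjusted p = 0.014). E10.5 exceeded E19.5 by 2.13 ± 0.18 (adjusted p = 8.5e-11), which was 1.74 after quantile normalization and 1.79 after median centring, under the 4-fold limit.

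*Cacna2d2* fell by 0.26 ± 0.01 log2 units per embryonic day (limma, adjusted p = 1.3e-16). In the order of stage means, 5 of 11 neighboring pairs did not overlap, more than for any other gene of the set. The slope was -0.29 ± 0.02 before the change of title form (adjusted p = 2.7e-10) and -0.12 ± 0.07 after it (adjusted p = 0.61). With the hybridization controls as a covariate it was -0.26 ± 0.02 (adjusted p = 1.1e-11). The other 2 probe sets of the gene stayed below 5 and differed from young adult in no stage, and averaged over all 3 the excess at E10.5 was 0.85 log2 units (adjusted p = 2e-05).

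*Cacna2d1* encodes α2δ-1, the α2δ subunit of the adult heart's L-type channel, and its 5 probe sets did not tell 1 story. The read probe set (1433643_at) gave 6.76, 6.75 and 6.82 at E10.5, and 7.61 (female), 7.46 (male) and 6.55 (mixed) at E19.5. In young adult it gave 6.73 (female), 6.14 (male) and 6.64 (mixed). The mixed E19.5 array lay among the young adult values, apart from the other two. This probe set was above young adult in 9 of 10 embryonic stages at an adjusted p under 0.05, by 1.20 ± 0.26 (SE) log2 units at E18.5 (limma, adjusted p = 0.0004), but not at E10.5 (0.27 ± 0.26, adjusted p = 0.35). The E10.5 difference had no stable sign: it was -0.22 after quantile normalization, -0.25 after median centring, -0.09 as the mean over all 5 probe sets, and -1.28 ± 0.39 with the hybridization controls as a covariate (limma, adjusted p = 0.015). At E19.5 the excess of 0.71 ± 0.26 (adjusted p = 0.038) was 0.00 ± 0.25 with that covariate (adjusted p = 1).

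A second probe set (1449999_a_at) went the other way against the adult: it was lower than young adult in 5 embryonic stages, with a log2 difference of -1.25 ± 0.22 at E10.5 (limma, adjusted p = 1.2e-05), and higher in none. It rose by 0.17 ± 0.02 per embryonic day (adjusted p = 7e-09), from 5.88, 6.30 and 6.49 at E10.5 to 7.99 (female), 7.83 (male) and 7.46 (mixed) at E19.5, which overlapped young adult (7.64, 7.45 and 7.32). One more (1441608_at) also rose through the embryonic days, by 0.10 ± 0.02 per day (adjusted p = 7.9e-06), and was above young adult in 7 stages.

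Another *Cacna2d1* probe set (1440397_at), whose stage means stayed below 5, went from a mean of 4.51 on the first day to 3.18 on the last, with a slope of -0.12 ± 0.02 (limma, adjusted p = 4e-05). The remaining one (1425861_x_at) stayed between 1.71 and 2.39 and was lower than young adult in 2 stages at an adjusted p under 0.05. The read probe set itself had a slope of 0.05 ± 0.02 per day (adjusted p = 0.023), short of 1e-05, with 0.15 ± 0.02 before the change of title form (adjusted p = 2.1e-05) and -0.09 ± 0.12 after it (adjusted p = 0.88). The 3 probe sets above 5 had positive slopes but differed in the comparison of early embryo with young adult.

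**Figure D4:**
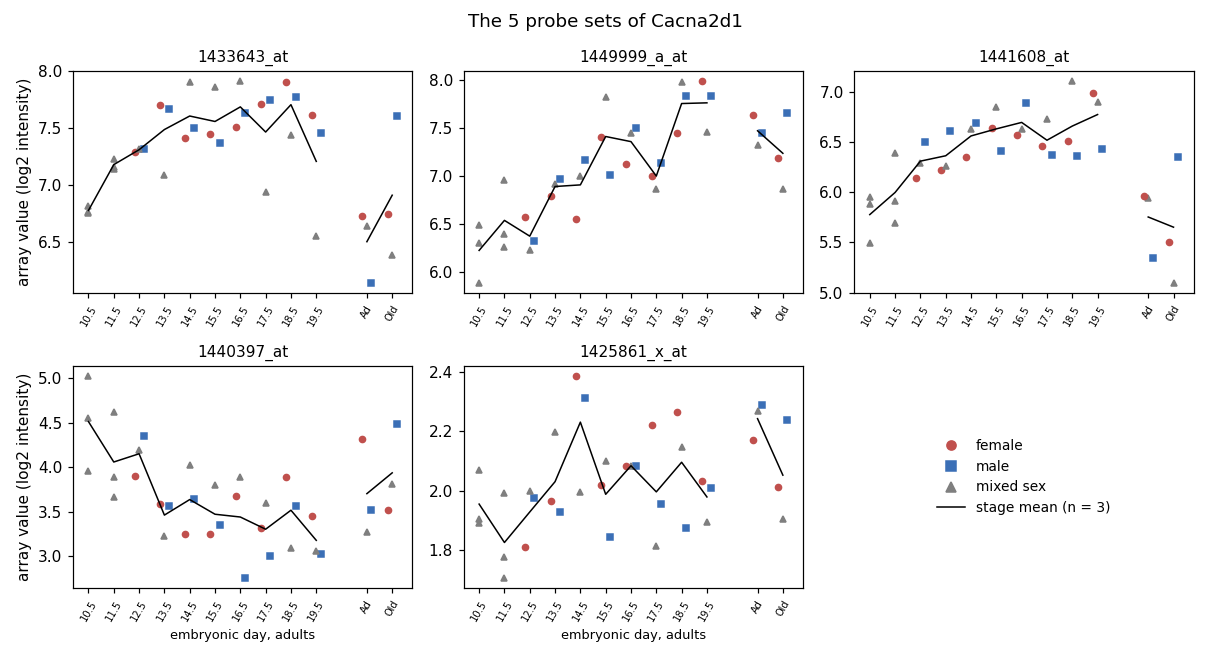
Log2 intensity (vertical axes, scaled separately) of the 5 *Cacna2d1* probe sets against stage (horizontal axes), with arrays as points by sex label and lines through stage means of 3 arrays. The upper 3 probe sets exceed 5, and of these 1449999_a_at and 1441608_at climb through the embryonic days. The read probe set, 1433643_at, goes from a mean of 6.78 (E10.5) up to 7.61 (E14.5), and its E19.5 mean is lower again (7.21). In young adult 1449999_a_at stays at 7.47, whereas 1433643_at and 1441608_at drop below their E19.5 means.

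The promoters of both α2δ genes are shown because these paralogs ran in opposite directions through the embryonic days on their called probe sets. The windows are the 250 bases before the annotated start in RefSeq (GRCm38.p6), 5′ to 3′ on the plus strand, with capitals marking the GC box GGGCGG or its reverse complement. *Cacna2d1* is at chr5:15934441-15934690 and *Cacna2d2* at chr9:107399630-107399879.
Cacna2d1: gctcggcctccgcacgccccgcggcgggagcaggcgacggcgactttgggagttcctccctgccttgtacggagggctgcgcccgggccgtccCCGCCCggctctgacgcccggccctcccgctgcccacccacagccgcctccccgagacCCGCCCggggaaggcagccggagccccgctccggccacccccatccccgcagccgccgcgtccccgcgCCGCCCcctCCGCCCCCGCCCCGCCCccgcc
Cacna2d2: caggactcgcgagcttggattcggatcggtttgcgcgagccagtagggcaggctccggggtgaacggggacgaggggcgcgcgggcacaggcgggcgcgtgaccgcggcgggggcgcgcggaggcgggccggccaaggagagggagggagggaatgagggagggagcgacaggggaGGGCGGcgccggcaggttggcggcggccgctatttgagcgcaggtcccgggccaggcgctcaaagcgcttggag
The *Cacna2d1* window has 82.4% G and C, 36 CpG and 6 GC boxes, some of them adjoining or sharing bases. The *Cacna2d2* window has 74.4% G and C, 34 CpG and 1 GC box.

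In all, 5 members matched promoter windows of 300 bases (250 before the start and 50 after), 9 windows in total, with *Cacna1g* and *Cacna1h* without one. On either strand, GGGCGG is held by 35.7% of all 32851 windows. The TATA box TATAAA is held by 13.6%. The letters AGATAA, bound by GATA factors, are in 11.2%. For NKX2-5 the letters AAGTG are in 46.4%, and for T-box factors the letters AGGTGT are in 13.7%. Genes with several annotated starts differed between them: *Cacna1d* has 1 window with 87.3% G and C and 6 GC boxes and another with 40.3% and 3 TATAAA matches, and *Cacnb2* has 1 with 71.7% and 1 GC box and another with 44% and 3 AAGTG matches. AGATAA was in none of the 9. These are letter matches, and which start is used in the heart was not measured.

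*Cacnb2*, the gene of the main β subunit of the heart, was highest at the first day sampled. Its arrays read 5.95, 6.23 and 5.90 at E10.5 and 5.84, 5.17 and 5.21 at E11.5. In young adult they read 4.53 (female), 4.59 (male) and 4.82 (mixed). The E10.5 arrays lay above all other arrays of the gene. The excess over young adult was 1.38 ± 0.23 (SE) log2 units at E10.5, or 2.61-fold (limma, adjusted p = 5.5e-06), and 0.76 ± 0.23 at E11.5 (adjusted p = 0.0056). With the hybridization controls as a covariate the E10.5 excess was 0.24 ± 0.38 (adjusted p = 0.73), and the call was lost.

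From E12.5 on, *Cacnb2* means stayed between 4.90 and 5.31 in the embryo, and 2 of these 8 stages passed an adjusted p of 0.05 against young adult (E16.5, 0.66 ± 0.23, limma, adjusted p = 0.020, and E19.5, 0.60 ± 0.23, adjusted p = 0.044). With the covariate the E19.5 difference was 0.08 ± 0.24 (adjusted p = 0.84). The slope over all embryonic days was -0.05 ± 0.02 (adjusted p = 0.043), and its sign was not stable: 0.03 ± 0.03 with the covariate (adjusted p = 0.46), -0.11 ± 0.04 before the change of title form (adjusted p = 0.013) and 0.09 ± 0.10 after it (adjusted p = 0.83). The second probe set (1452476_at), below 5 throughout, also had its highest mean at E10.5 (arrays 2.80, 3.42 and 3.03) and exceeded young adult there by 0.72 ± 0.17 (adjusted p = 0.00052).

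Counted at an adjusted p under 1e-05, 5 of the 7 genes changed along embryonic day, beside 24.8% of all genes. *Cacna1c*, *Cacna1g* and *Cacna2d1* went upward, beside 9.66% of all genes, and *Cacna1h* and *Cacna2d2* downward, beside 15.4%. The *Cacna2d1* call rests on probe sets 1449999_a_at and 1441608_at. At the last embryonic day, E19.5, 6 of the 7 were higher than young adult at an adjusted p under 0.05, beside 20.8% of all genes, with *Cacna1d* as the exception. Neither *Cacna2d1*, on its read probe set, nor *Cacnb2* passed there with the hybridization controls as a covariate. At E10.5, the read probe sets of *Cacna1h*, *Cacna1d*, *Cacna2d2* and *Cacnb2* were higher and that of *Cacna1g* lower. Counted by any probe set, 5 members were higher and 2 lower, with *Cacna2d1* in both. Counted the same way, 33.3% of all genes were higher and 48.5% lower. With that covariate *Cacna1g* and *Cacnb2* no longer passed at E10.5, and the read probe set of *Cacna2d1* was lower. The median of all probe sets at E10.5 was -0.19 relative to young adult as deposited, -0.05 after quantile normalization and -0.71 after centring each array on the median of its expressed probe sets.

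The members also differed in how their stage means ran together, which is given as a description over 12 stage means from shared arrays. *Cacna1h* and *Cacna1d* had r = 0.929, *Cacna1c* and *Cacna1g* r = 0.901, and *Cacna1h* and *Cacna2d2* r = 0.815. Both T-type genes had r = 0.213 with each other, and *Cacna1g* and *Cacna2d2* had r = -0.373. Among 8801 genes with a range over 1, the pattern most like that of *Cacna1h* belonged to *Vrk1* (r = 0.997), *Cdt1* (0.996) and *Mta1* (0.995). *Cdt1* encodes a factor that licenses replication origins.

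For *Cacna2d2* the most alike were *Mlec* (0.988), *Cetn3* (0.987) and *Hmga2* (0.987), the last an architectural chromatin protein of embryonic tissue. For *Cacna1g* they were *Trim3* (0.984), *Metap1d* (0.983) and *BC034090* (0.980), and for *Cacna1d* *Zfp157* (0.983), *Pcyox1l* (0.979) and *Sf3b1* (0.976). For *Cacna1c* r reached 0.971 with *6720477C19Rik*, for *Cacna2d1* 0.972 with *Glt8d1*, and for *Cacnb2* 0.929 with *Thsd4*.

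Between old and young adult, no member changed at an adjusted p under 0.05 (limma), nor at an unadjusted p under 0.05, where 11.6% of all genes passed the former and 34.3% the latter. The nearest was *Cacna1g*, with 4.33 (female), 4.44 (male) and 4.83 (mixed) in old adult against 5.43, 4.90 and 4.60 in young adult, a log2 difference of -0.45 ± 0.22 (SE, adjusted p = 0.23, 95% interval -0.90 to 0.01). For *Cacna1h* the interval was -0.27 to 0.42 and for *Cacna1c* -0.33 to 0.40. When the hybridization controls entered as a covariate, the difference went from 0.41 to -0.15 for *Cacna2d1*, from 0.11 to -0.30 for *Cacnb2* and from 0.04 to 0.00 for *Cacna1c*, none at an adjusted p under 0.05.

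The old male array stood apart from the other two old arrays for several members. *Cacna1c* read 8.02 on it against 6.70 (female) and 7.11 (mixed), *Cacna2d1* 7.61 against 6.74 and 6.38, and *Cacnb2* 5.37 against 4.63 and 4.26. For *Cacna2d2* it was the lowest of the 3, with 5.70 against 6.68 and 6.47. Without it, old minus young adult was -0.34 for *Cacna1c* (limma, adjusted p = 0.15) in place of 0.04, and -0.20 for *Cacnb2* (adjusted p = 0.69) in place of 0.11.

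Between male and female arrays (9 pairs, E13.5 and later), again no member passed an adjusted p under 0.05 (limma) or an unadjusted p under 0.05, beside 0.0483% and 13.4% of all genes. Differences of the read probe sets lay between -0.10 (*Cacna1d*) and 0.11 (*Cacna1c*) log2 units, with standard errors of 0.08 to 0.13. Slopes over the embryonic days were also compared between male and female arrays, and 0 members and 0% of all genes passed an adjusted p under 0.05 (limma). At an unadjusted p under 0.05, where 7.99% of all genes passed, 1 member passed, through *Cacna2d1* probe set 1441608_at, with a male minus female slope of -0.12 ± 0.04 log2 units per day.

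Most other calcium channel subunits had low array values. Of 18 other α1, α2δ, β and γ genes found, 4 had a stage mean above 5 (*Cacna1a*, *Cacnb3*, *Cacng2* and *Cacng7*), none was called at the study's limits against young adult or E19.5, and none above 5 passed 1e-05 along embryonic day. Their median difference was -0.56 at E10.5 and -0.18 at E19.5 against young adult, beside -0.19 and -0.04 for all probe sets.

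Among proteins known to bind or regulate these channels, 6 of the 14 genes found met the rule for being named. *Gem*, a small G protein that inhibits L-type channels through the β subunit, averaged 5.79 on the first embryonic day against 3.54 on the last, and fell by 0.36 ± 0.04 log2 units per day (limma, adjusted p = 4e-09). It was called above young adult in 3 stages. Its relatives *Rrad*, *Rem1* and *Rem2* were not called, nor were *Stac*, *Stac2* and *Stac3*, whose proteins bind L-type channels. *Akap5*, an anchor for protein kinase A at the channel, fell by 0.28 ± 0.02 per day from a mean of 5.47 to one of 2.88 (adjusted p = 2.5e-14).

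*Ahnak*, a large scaffold that binds β subunits, was lower than young adult in all 10 embryonic stages at the study's limits on 1452217_at. On this, its read probe set, the log2 difference was -2.34 ± 0.29 at E10.5 (limma, adjusted p = 3.3e-08) and -2.09 ± 0.29 at E19.5 (adjusted p = 9e-07). Its other probe sets were called in no stage, with differences of -1.11, -1.11 and -0.31 at E10.5. *Cav3*, the muscle caveolin, rose by 0.12 ± 0.02 per day (adjusted p = 7.4e-08). *Prkaca*, the catalytic subunit of protein kinase A, rose by 0.16 ± 0.02 per day (adjusted p = 1.5e-09), from 9.81 to 11.0, and had a mean of 9.45 in young adult. Its other probe set (1450519_a_at) rose by 0.10 ± 0.02 per day (limma, adjusted p = 1.1e-05), short of the limit of 1e-05. *Camk2d*, a calmodulin-dependent kinase, was called above young adult in all 10 embryonic stages on 1 of its 7 probe sets (1459457_at, 2.46 ± 0.25 at E10.5, adjusted p = 5.6e-10). Another (1444031_at) was called in 4 stages and the rest in none. The latter include the probe set with the highest mean (1422659_at, 1.14 ± 0.32 at E10.5, limma, adjusted p = 0.0032).

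**Figure D5:**
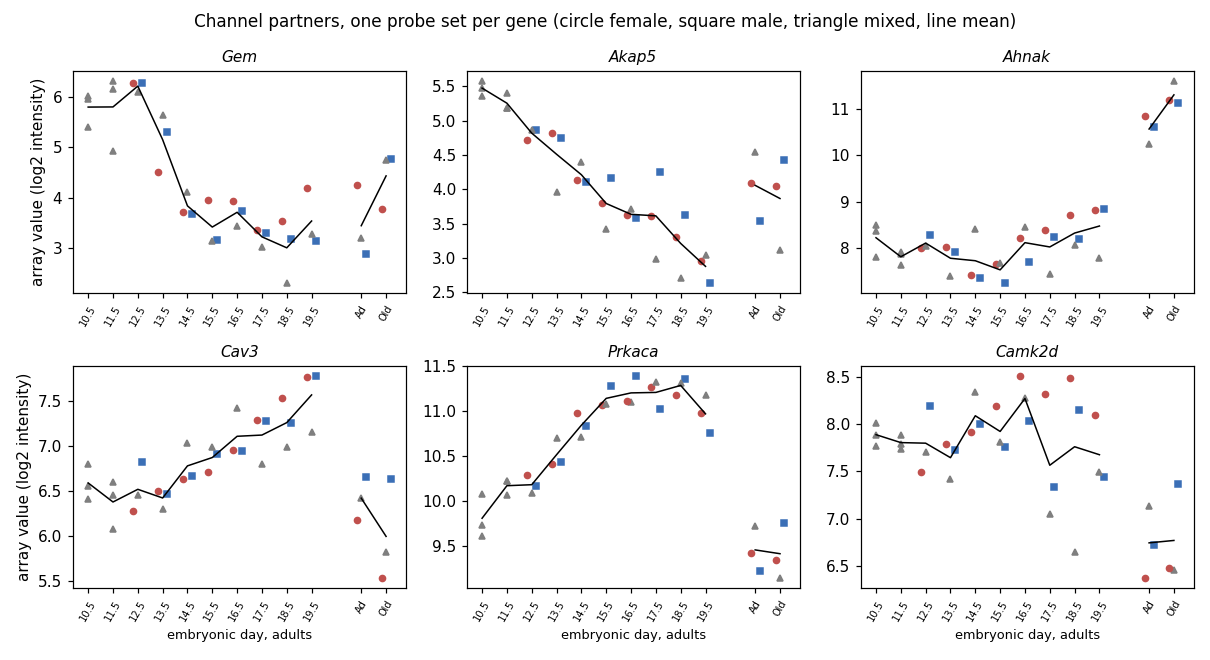
Log2 intensity (vertical axes, scaled separately) of 6 channel partners against stage (horizontal axes), for the probe set with the highest mean of each gene; points are arrays and lines join stage means of 3 arrays. *Gem* and *Akap5* decline, *Cav3* climbs to E19.5, *Prkaca* climbs to E18.5 (11.3) and is at 11.0 on E19.5, and *Ahnak* is at 10.6 in young and 11.3 in old adult against 8.22 at E10.5.

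Markers of other tissue parts moved with stage as well. Of 4 atrial markers, *Myl7* (13.0 on the first and 10.3 on the last embryonic day) and *Myl4* (12.1 and 9.76) fell along embryonic day and *Sln* rose (3.50 and 6.77), each at an adjusted p under 1e-05 (limma), and the list's mean ranged from 10.8 in young adult to 8.98 at E17.5. Of 5 sinoatrial node markers found, 3 were above 5, of which *Isl1* fell from 5.14 to 4.01 (limma, adjusted p = 1.1e-07), *Tbx3* went from 6.26 to 7.14 with a positive slope (adjusted p = 3e-05), and *Shox2* had a slope of -0.03 (adjusted p = 0.091). All 5 smooth muscle markers were above 5: *Myh11* was lower than young adult in all 10 embryonic stages at the study's limits (-5.34 at E10.5) and rose along embryonic day, whereas *Tagln* and *Cnn1* fell. All 4 ventricular markers were above 5, and *Irx4* (9 stages) and *Myh7* (7 stages) were called higher than young adult. Of 7 neuronal markers, 2 were above 5. Of 6 skeletal muscle markers, 1 was above 5. The fibroblast list of 5 averaged 7.11 on the first embryonic day, 9.32 on the last, and 8.28 in young adult, but its members differed in direction. Along embryonic day *Dpt* and *Col1a1* rose (slopes 0.82 and 0.30, limma, adjusted p = 2.8e-12 and 4.5e-07). *Pdgfra* fell (slope -0.18, limma, adjusted p = 7.7e-07), and *Postn* (slope 0.10) and *Tcf21* (slope -0.08) did not pass 1e-05. Stage means of the average of the 5 cardiomyocyte markers stayed between 11.0 and 11.6. Of these markers, *Tnnt2* and *Ttn* rose along embryonic day (slopes 0.06 and 0.08, limma, adjusted p = 2.3e-07 and 1.1e-08), and the others did not pass 1e-05. The part of these tissue shares in the channel results was not tested.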

How the data were processed

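Heart RNA was measured on Affymetrix whole-genome mouse arrays with 1 colour. The deposited values are log2 intensities that the authors made by robust multi-array average (RMA: background correction, quantile normalization, summary per probe set), and per the labels Affymetrix Expression Console and Partek 6.6 were used. They were used as deposited, and 0 value columns were left unused. The number of arrays limits precision. Gene IDs come from the deposited annotation; RefSeq (GRCm38.p6) served for names and promoters.

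Stages were compared with limma 3.58.1 in R 4.3.3: 1 model of 12 stage means on 36 arrays and all probe sets, slopes on embryonic day over 30 arrays, and male minus female over 9 pairs with stage as a block, with Benjamini-Hochberg adjustment over all probe sets per comparison. The limits of the study's methods were kept. Permutation tests used numpy 2.4.6. The stage, slope and sex fits were tested on simulated data with independent noise on each array. The simulated data held no shift with title form or hybridization controls, so that test does not bear on either.

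The members and gene lists were chosen with earlier results of these data known. Named were all members, listed partners that were called or changed with embryonic day, and the 3 genes most like each member (for some only the first is printed). Calmodulin genes and *Cacna1i* were not analysed here. Alternatives concerned scaling, filters, limits, arrays in the fit, covariates, blocks and left-out arrays. Whether equal replicate numbers pair the arrays of E10.5 and E11.5 could not be settled from 3 pairs (correlation of deviations -0.254 to 0.222). The main fit did not pair them.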

Additional observations from a re-analysis of the deposited data

How the results depend on the processing

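Counts of member genes past a threshold moved by more than 1.5 times under these settings, and the causes were not tested. Against young adult, 4 genes became 2 (*Cacna1h* and *Cacna2d2*) after median centring and with only the arrays of the 2 stages compared, and 3 to 4 with 1 array left out. Against E19.5, 3 became 6 with a log2 limit of 1 and 1 (*Cacna1h*) with only the arrays of the 2 stages, and 3 to 4 with 1 array left out. Between days, 1 became 0 after quantile normalization and 0 to 2 with 1 array left out, 2 without 1 array of E11.5 (*Cacnb2* added) or without the old male array (*Cacna1c* added). Along embryonic day, 5 became 3 with the hybridization controls as a covariate (*Cacna1d* gained, *Cacna1c*, *Cacna1g* and *Cacna2d1* lost), 0 within the 10 arrays after the change of title form, and stayed at 5 with any 1 array left out. The *Cacna1g* slope turned to -0.084 within those 10 arrays. With the sex label as a replicate block from E12.5 on, the pairing left 3 (*Cacna1c*, *Cacna1h* and *Cacna2d2*), beside 4 on the same arrays without the block, an alternative chosen after seeing the data. Same-labelled arrays deviated together in 56 of 135 pairs at a correlation over 0.1 (median 0.042, range -0.575 to 0.596). Arrays with different labels were not compared, so whether same-labelled arrays share more than a label was not settled. The counts of 0 for age and sex were 0 in all alternatives run.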
